A study of Danio rerio with 10 samples.

Results

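Whole zebrafish larvae of the AB strain were collected as pools at 5 days post-fertilization (dpf) and their RNA was sequenced, to ask which transcripts change on exposure to a mixture of persistent organic pollutants (POPs). The 10 pools cover the POP mixture at 75 times (POP75x) and 125 times (POP125x) the human blood level and a solvent control, and all media, the control medium included, held 0.1% DMSO. The subject here is a division among the pools that crosses these treatments. Control replicates 2 and 4 and POP75x replicate 3 form a group of 3 pools, and control replicate 1, POP75x replicate 4 and POP125x replicates 3 and 4 form a group of 4 pools, 7 of the 10 pools in all. The pools were grouped on their measured gene values: they were clustered on the log2 values of the genes described below, and cutting the tree into 3 clusters gives these groups and a cluster of the other 3 pools, POP75x replicate 2 and POP125x replicates 1 and 2. The groups therefore differ by how they were chosen, and every difference between them is a description without a test. The labels name no clutch, day or tank that sets the groups apart. They do not give the RNA quality of a pool, and transcript lengths were not at hand. Whether RNA quality or transcript length plays a part in the division was not tested. A pool of whole larvae gives 1 value for many animals and all tissues, so fewer cells of a type and less RNA per cell cannot be told apart.

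At this stage a zebrafish larva is finishing the change from yolk to its own feeding. The lens fills with crystallins, the clear proteins of its fiber cells, rods and cones take on their light-sensing proteins, skeletal muscle grows, and the pancreas, liver and intestine begin to handle food. Transcripts made by only one of these tissues can therefore be followed in RNA of the whole animal. All 27 tissue markers looked at, from lens, photoreceptors, muscle, blood, pancreas, liver, intestine, leukocytes, cartilage, skin and neurons, had a value in each of the 10 pools.

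Reads on genes were between 13659239 and 20267255 per pool. Control 2, control 4 and POP75x 3 had 18489435, 18964625 and 20267255. Control 1, POP75x 4, POP125x 3 and POP125x 4 had 15516807, 15555582, 17174663 and 18834380. Whether depth plays a part in the division was not tested. Values are normalized counts, reads divided by 1 size factor of the pool. Their sum was 18079918, 18673172 and 21596881 in control 2, control 4 and POP75x 3, and between 14807985 and 16443141 in the 4-pool group. The 20 largest values made up 3118450, 3259231 and 4434180 of it in the 3-pool group, against 2140093 to 2715739 in the 4-pool group. The root mean square log2 difference between pools was 0.38 to 0.52 within the 3-pool group, 0.39 to 0.61 within the 4-pool group and 0.65 to 0.85 between them. The nearest pools across the border were control 2 and POP125x 4, at 0.65.

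The difference of a gene is given on the log2 scale as the 3-pool minus the 4-pool group with treatment as a covariate. It rests on control 2 and 4 minus control 1 (57.1% of the weight) and on POP75x 3 minus POP75x 4 (42.9%). No POP125x pool lies in the 3-pool group, so the POP125x pools enter only the standard error, and POP125x and the 4-pool group cannot be told apart there. A gene is called set apart where the difference is at least 1 in size, a 2-fold change, and has the same direction in the controls, pool by pool, and in the POP75x pair.

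The 21140 genes described reached 10 normalized counts in 3 or more of the 7 pools. Of these, 905 were set apart with higher values in the 3-pool group (4.28%) and 1489 with lower values (7.04%). The 3 pools all lay above the 4 pools in 4618 genes (21.8%) and all below them in 4488 genes (21.2%). These shares follow from the choice of the groups and are printed as the background for the counts below. They and the matching counts in each list compare the values without the treatment term. The 4-pool group holds the POP125x pools, so treatment and pool group are mixed in them. The median difference over all genes was 0.00, with quartiles at -0.43 and 0.40. The difference within the controls and the difference within POP75x share no pool, and across genes they had a Pearson correlation of 0.72, with the same sign in 77.9% of genes. Pools of both treatments entered the clustering, so this correlation is a description and not independent of the choice of the groups.

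**Figure D1:**
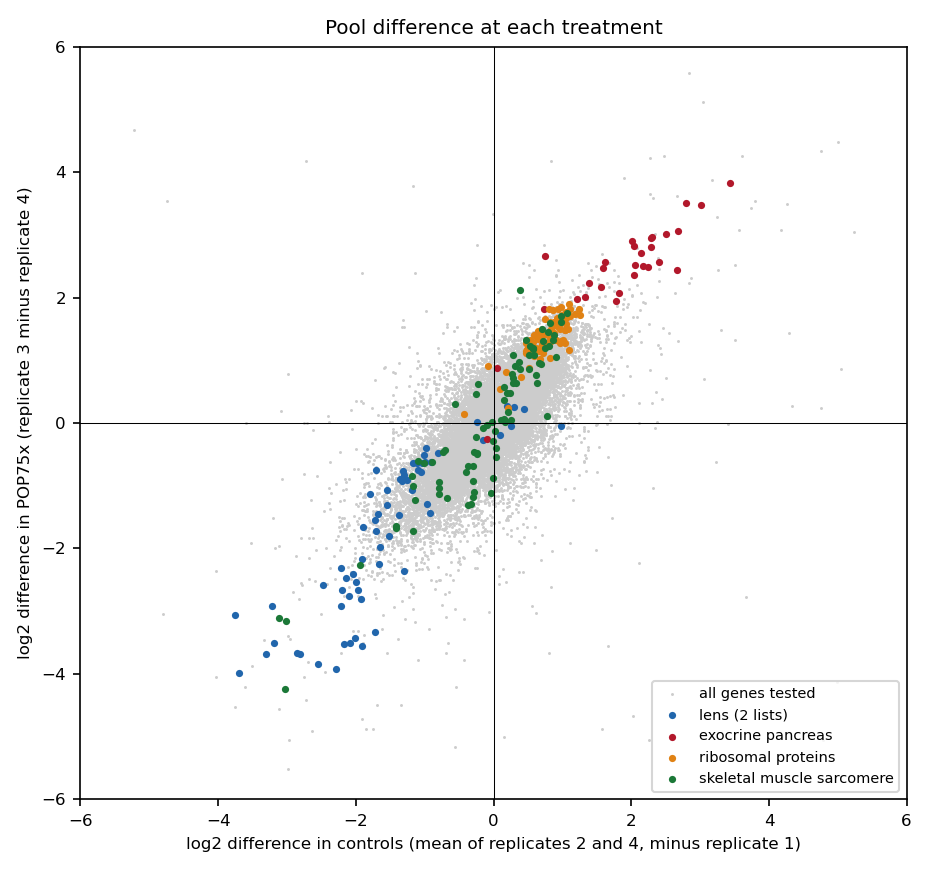
Each point is a gene, where the horizontal axis is its log2 difference within the controls (mean of replicates 2 and 4, minus replicate 1) and the vertical axis its log2 difference within POP75x (replicate 3 minus replicate 4). Exocrine pancreas and ribosomal protein genes lie mostly in the upper right, lens genes mostly in the lower left and muscle sarcomere genes along both arms, 77.9% of all genes have the same sign on both axes, and 5 genes lie outside the limits of 6.

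Lens transcripts were lower in the 3-pool group. Of 41 crystallin genes tested, 30 were set apart lower and 0 higher, with a median difference of -1.45 against 0.00 for all genes, and in 36 of them the 3 pools all lay below the 4. Of 23 other lens genes, 16 were lower and 0 higher, with a median of -2.02. Among the 20 genes with the largest negative difference, each at least 2.69 in size, 3 were members of the crystallin list and 5 of the list of other lens genes. A further crystallin gene among these 20 stands outside the crystallin list.

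The first marker of the division, lgsn (ENSDARG00000007715), encodes lengsin, a lens fiber protein of the glutamine synthetase family. It had 15.65, 11.82 and 10.66 normalized counts in control 2, control 4 and POP75x 3, against 189, 185, 100.0 and 66.3 in control 1, POP75x 4, POP125x 3 and POP125x 4. The groups do not overlap, and the difference was -3.83 (standard error 0.25). In the other 3 pools, POP75x 2 and POP125x 1 and 2, the counts were 488, 385 and 378, above both groups.

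In cryaa, crybb1l1 and crygn2 the groups did not overlap either. The cryaa gene, which encodes the small heat shock protein alpha A crystallin, had 25.4, 21.7 and 11.7 normalized counts in control 2, control 4 and POP75x 3, against 176, 160.2, 89.8 and 34.9 in the 4-pool group (difference -3.20). The beta crystallin gene crybb1l1 had 475, 548 and 261 in the 3-pool group and 3579, 3378, 2237 and 835 in the 4-pool group (difference -3.18, standard error 0.31). In both genes POP75x 3 was the lowest of the 7 pools, and POP125x 4 was the pool of the 4-pool group nearest to the other side. The crygn2 gene, a gamma N crystallin, differed by -2.20 and its 4-pool values were closer together, at 788, 827 and 599.9 in the 3-pool group against 3343, 3196, 2683 and 2376.

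The crystallin families were separated after their values were seen. All 10 beta crystallin genes were set apart lower, with a median of -2.30 and a range of -3.18 to -1.16. Of 24 gamma M crystallin genes, a large fish family of near-identical copies whose reads the counting could have divided among members, 14 were set apart lower, with a median of -1.10. The range of this family ran from -1.79 to 0.13. The gene at its upper end, crygm2f, is lowly counted, with 21.5, 17.7 and 17.1 normalized counts in the 3-pool group and 16.2, 17.6, 30.9 and 36.7 in the 4-pool group. Its sign turned with scaling by total reads (-0.247), without the treatment term (-0.34) and without control replicate 1 (-0.042). It also turned over all 10 pools, without (-0.054) and with (-0.338) the replicate number as a block. A more abundant member that was not set apart, crygm2d10, had 3514, 4583 and 3932 in the 3-pool group against 7043, 5499, 7361 and 5247 (difference -0.67).

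Fiber cell membrane and cytoskeleton genes had some of the largest differences. The mipa gene, one of a pair of aquaporin-0 genes that carry water through fiber membranes, had 279, 258 and 92.7 normalized counts in the 3-pool group and 1579, 1342, 855 and 327 in the 4-pool group (difference -3.11). For its partner mipb the groups overlap, because control 2 and 4 had 303 and 304, above POP125x 4 at 284 (difference -2.63). The bfsp2 gene, which encodes the beaded filament protein phakinin, had 75.3, 52.2 and 43.7 against 581, 507, 299 and 190.3 (difference -3.33). Filensin, the partner of phakinin, is encoded by BFSP1, and its difference of -3.47 came with an overlap, control 2 at 19.6 and POP125x 4 at 16.6. The gap junction gene gja8b (difference -3.09) and hsf4, a heat shock factor that works in lens fiber maturation (difference -3.45, with 7.82, 0.980 and 6.39 normalized counts in the 3-pool group and 25.3 to 60.6 in the 4-pool group), did not overlap. Both copies of the lactase-like gene, lctla (-3.45) and lctlb (-3.73), were also among the 20 lowest.

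Of the 23 other lens genes, 7 were not set apart. The following 3, all transcription factors, were picked from these after their values were seen, so their place outside the pattern is fixed by the choice. The homeobox gene pitx3 had 297, 320.0 and 275 normalized counts in the 3-pool group against 250.0, 231, 264 and 226 (difference 0.28, or -0.113 with scaling by total reads). The prox1a gene, a homeobox factor of fiber differentiation that other tissues also use, had 866, 913 and 713 in the 3-pool group and 833, 814, 800.4 and 610.2 in the 4-pool group (difference -0.03). The Maf family gene mafba differed by 0.35, or by -0.041 with scaling by total reads.

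**Figure D2:**
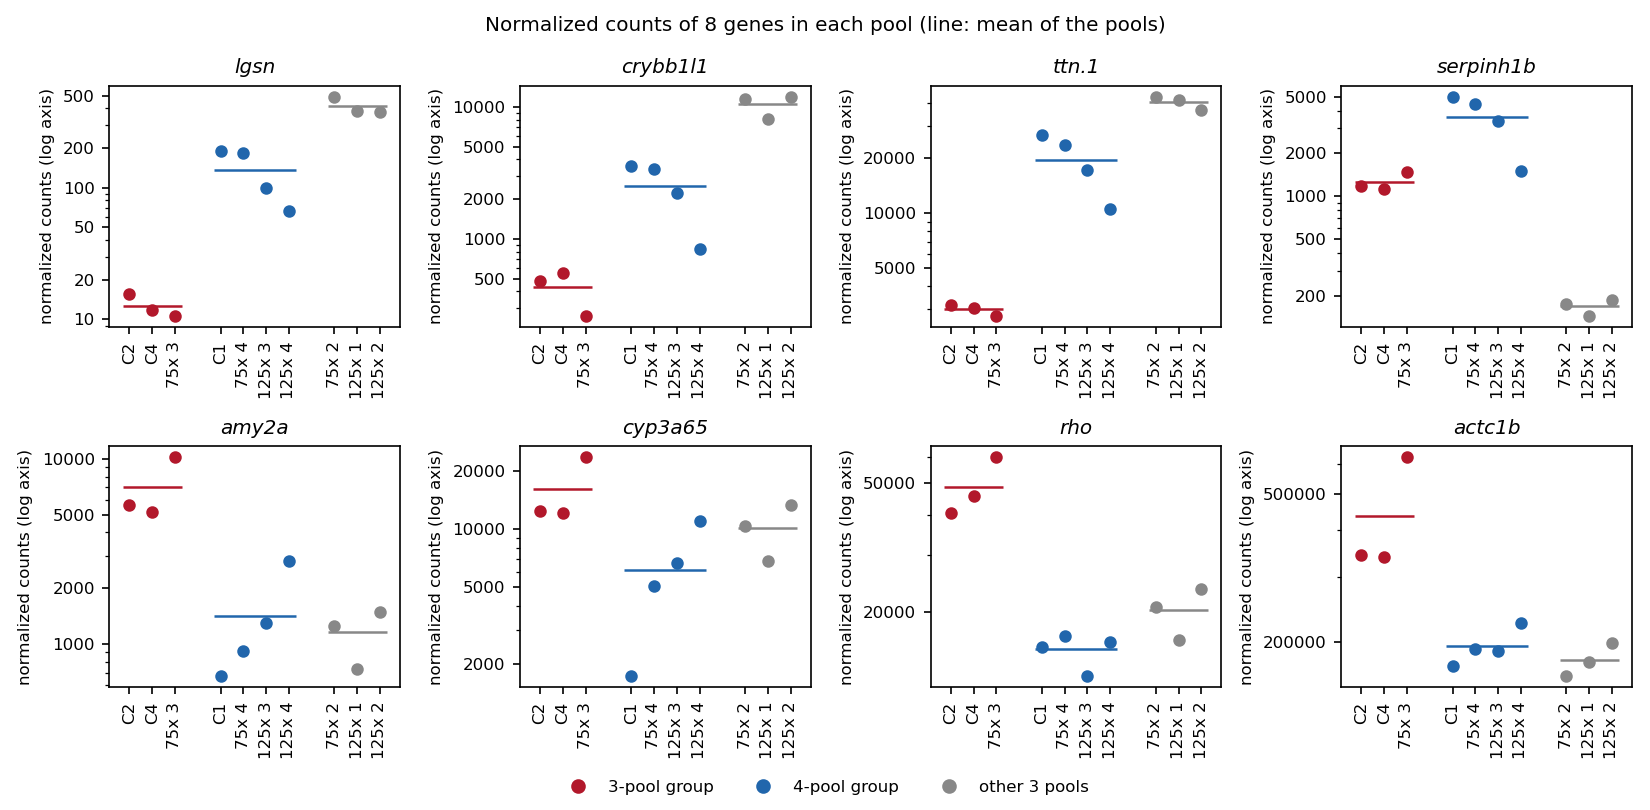
Normalized counts of 8 genes, on log axes, in each of the 10 pools: control (C), POP75x (75x) and POP125x (125x) with the replicate number, where red points are the 3-pool group, blue points the 4-pool group and grey points the other 3 pools, and lines are means. The 3-pool group is below the 4-pool group in the 4 upper plots (lgsn, crybb1l1, ttn.1 and serpinh1b) and above it in the 4 lower plots (amy2a, cyp3a65, rho and actc1b), and the other 3 pools lie below both groups in serpinh1b, at 144 to 187, and above both in lgsn, crybb1l1 and ttn.1.

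Muscle genes went both ways. Of 86 sarcomere genes tested, 9 were set apart higher and 10 lower, with a median of 0.09 that turned to -0.293 with scaling by total reads. The 3 largest negative differences were those of the calpain protease gene capn3a (-3.55) and of the titin genes ttn.1 and ttn.2. Titin is the giant spring protein that spans the sarcomere from Z-disc to M-line. The capn3a difference was -3.03 within the controls and -4.24 within POP75x, with POP75x 3 the lowest pool, as in crybb1l1 and mipa. Which tissue its reads came from was not tested. The ttn.1 gene had 3174, 3045 and 2755 normalized counts in the 3-pool group and 26859, 23725, 17229 and 10615 in the 4-pool group (difference -3.11, standard error 0.17). The difference was -3.11 within the controls and -3.11 within POP75x, and the other 3 pools lay above both groups, at 43183, 41330.0 and 36753. The ttn.2 gene differed by -3.08.

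Further sarcomere genes set apart lower were neb and xirp2b. The neb gene, which encodes nebulin along the thin filament, had 10511, 9847 and 8852 normalized counts in the 3-pool group against 22517, 20832, 16961 and 14801 (difference -1.18). The xirp2b gene, a Xin actin-binding repeat protein of muscle attachments, differed by -2.08. The obscurin gene obscnb, which stands in no list and was taken up after its values were seen, had 358, 311 and 344 in the 3-pool group against 1667, 1500.3, 1364 and 1069 (difference -2.23). The other 67 genes of the list were not set apart. Whether transcript length plays a part in the muscle differences was not tested.

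Among the 9 sarcomere genes set apart higher were actc1b, mylz3, acta1b and ckma. The actc1b gene, an alpha actin, had 342225, 339191 and 626182 normalized counts in control 2, control 4 and POP75x 3, against 173364, 192362, 189840.0 and 225352 in the 4-pool group (difference 1.29, standard error 0.29). The myosin light chain gene mylz3 (1.37), the actin gene acta1b (1.25) and the muscle creatine kinase gene ckma (1.15) were also set apart higher. In all 4 genes the 3 pools lie above the 4, and POP75x 3 is the highest pool, at 121861 for ckma against 69062 and 63961 in control 2 and 4.

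Of 24 heart muscle genes, 2 were set apart higher, acta1b and a second actin gene, actc1c, and 6 lower, with a median of -0.04, which was 0.176 without control replicate 1. The myosin heavy chain gene myh7 had 1370.0, 1441 and 1093 normalized counts in the 3-pool group against 2888, 2669, 2789 and 2279.5 (difference -1.15). The natriuretic peptide gene nppa, made in the heart chambers, differed by -1.10, and the cardiac and endodermal transcription factor gene gata4 by -1.61, with 22.5 to 33.5 in the 3-pool group and 69.7 to 105 in the 4-pool group.

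The second marker was serpinh1b, which encodes Hsp47, the chaperone that folds collagen in the endoplasmic reticulum. It had 1182, 1124 and 1482 normalized counts in control 2, control 4 and POP75x 3, against 4996, 4471, 3384 and 1505 in the 4-pool group (difference -1.89, standard error 0.25). The groups are separated only by the gap between POP75x 3 and POP125x 4. With 174, 144 and 187, the other 3 pools were below both groups, the opposite of their place in lgsn. Its paralog serpinh1a differed by -1.09, with an overlap, POP75x 3 at 566 and POP125x 4 at 526.

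Of 34 genes for collagen chaperones and collagen-modifying enzymes, 1 was set apart higher and 7 lower, with a median of -0.31. The loxl1 gene, a lysyl oxidase that crosslinks matrix fibers, had 278, 234 and 201 normalized counts in the 3-pool group and 1106, 993, 718 and 589 in the 4-pool group (difference -2.19). Among 33 collagen genes, 0 were higher and 7 lower, with a median of -0.29 that turned to 0.038 without the treatment term. In 7 the 3 pools all lay above the 4 and in 7 below, near the shares of all genes (21.8% and 21.2%). The basement membrane collagen gene col4a6 differed by -1.14, whereas col1a1a, the main fibrillar collagen chain of skin and bone, picked after its values were seen, lay the other way, with 69599, 67021 and 96114 in the 3-pool group against 52761, 49799.7, 39773 and 35657 (difference 0.62, not set apart).

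Heat shock proteins and chaperones numbered 65, of which 6 were set apart higher and 6 lower. Their median of 0.00 was -0.39 with scaling by total reads. The lowest difference of the list, -3.45, was that of hsf4, already described with the lens genes. The inducible chaperone gene hsp70.3 had 392, 369 and 795 normalized counts in the 3-pool group against 1024, 1395, 1713 and 1107 (difference -1.16). Copies of this gene are nearly identical, so reads may have been divided among them. The chaperonin subunit gene cct4 lay the other way, at 1.07. The constitutive chaperone gene hspa8, picked after its values were seen, differed by 0.64, and control 2 at 88283 was below POP125x 3 and 4 at 89076 and 89159.9.

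**Figure D3:**
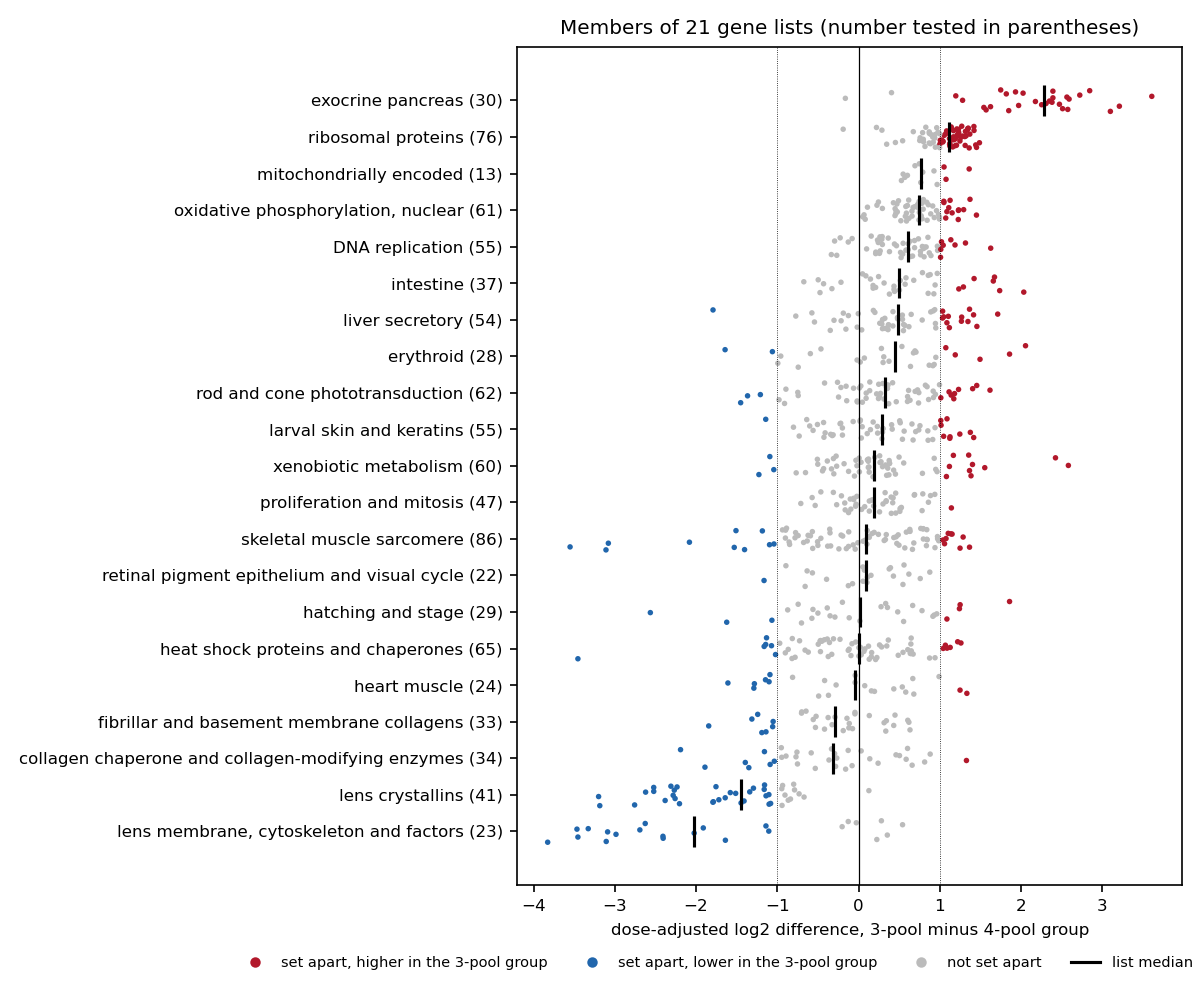
Each point is a gene of 1 of 21 lists, placed by its dose-adjusted log2 difference (3-pool minus 4-pool group), with red points for genes set apart higher, blue for genes set apart lower and grey for the rest. Black bars are list medians, dotted lines mark -1 and 1, lists are ordered by median, from exocrine pancreas at 2.28 to other lens genes at -2.02, and with scaling by total reads the medians of 8 lists turn below 0: phototransduction, skin, xenobiotic metabolism, mitosis, sarcomere, retinal pigment epithelium, hatching and stage, and heat shock.

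The exocrine pancreas was the list with the highest median. Of its 30 genes tested, 28 were set apart higher in the 3-pool group and 0 lower, with a median of 2.28, and in 27 of them the 3 pools all lay above the 4. Summed over the list, the normalized counts were 136779, 131541 and 223858 in control 2, control 4 and POP75x 3, against 34354.5, 40040.2, 40822.5 and 78377.0 in control 1, POP75x 4, POP125x 3 and POP125x 4. Of the 20 genes with the largest positive difference, each at least 2.398 in size, 9 came from this list.

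The amylase gene amy2a, whose product digests starch, had 5609, 5187 and 10191 normalized counts in the 3-pool group and 669.9, 913, 1289 and 2794 in the 4-pool group (difference 3.21, standard error 0.24). The other 3 pools, at 1248, 729 and 1487, lay within the range of the 4-pool group. The elastase gene ela2l had 6692, 6607 and 9998 against 1172, 1237, 1823 and 3862 (difference 2.72). For the trypsin gene prss1 the values were 9735, 10433 and 15763 in the 3-pool group and 3429, 3506, 3562 and 6560.0 in the 4-pool group (difference 1.82).

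Lipase and peptidase genes of the list were also higher. The bile salt-activated lipase gene cel.2 differed by 2.84, the carboxypeptidase gene cpa5 by 2.47, the chymotrypsinogen gene ctrb1 by 2.18 and zgc:136461, a gene of the list known by its clone name, by 3.61. The cpa5 gene also stands in the list of macrophage and neutrophil genes, of which 33 were tested, 5 were higher and 3 lower. The astacin protease gene c6ast4, outside the lists but among the 20 highest, had 2048, 2137 and 4298 normalized counts in the 3-pool group against 149.8, 368, 503 and 1789 (difference 3.69). Many of these proteases belong to families of close copies, and the counting could have divided their reads.

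The 2 members of the list that were not set apart, ptf1a and rbpjl, encode transcription factors. The ptf1a gene had between 45.0 and 77.8 normalized counts in the 3-pool group and between 25.3 and 49.6 in the 4-pool group (difference 0.41, with an overlap). Its partner in the acinar cell, rbpjl, had 6.39 to 10.8 in the 3-pool group against 7.81 to 11.3 (difference -0.16).

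Some genes of the intestine and liver were higher. Of 37 intestine genes, 7 were set apart higher and 0 lower, with a median of 0.50, but in only 3 of them the 3 pools all lay above the 4, and in 3 all below. The fatty acid binding protein gene fabp2 of enterocytes had 6307, 6556 and 10473 normalized counts in the 3-pool group and 3128, 3720.4, 4843 and 5833 in the 4-pool group (difference 1.23). The chitinase gene chia.2 (1.74) and the bile acid binding protein gene fabp6 of the ileal segment (1.66) had larger differences, but POP125x 4 overlapped the 3-pool group in both.

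Of 54 liver genes, 13 were higher and 1 lower, with a median of 0.48, and in 17 the 3 pools all lay above the 4. The secreted protease inhibitor gene serpina1l had 6701, 6854 and 5980.2 normalized counts in the 3-pool group against 2352, 2325, 2267 and 3723 (difference 1.46). The liver fatty acid binding protein gene fabp10a reached 1.09 mainly through POP75x 3, at 5845 against 1989 and 1958 in control 2 and 4, and the groups overlap, with POP125x 4 at 2617. The alas1 gene, the first enzyme of heme synthesis outside the red cell, stands in no list and was taken up after its values were seen, with 5016, 4995 and 9092 against 1481, 2107, 2298 and 2836 (difference 1.91).

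Of 60 genes of xenobiotic metabolism, 10 were higher and 3 lower, with a median of 0.19 that turned to -0.205 with scaling by total reads. In 9 the 3 pools all lay above the 4 and in 6 below, both under the shares of all genes (21.8% and 21.2%). The intestinal and hepatic cytochrome P450 gene cyp3a65 had 12464, 12221 and 23709.7 normalized counts in the 3-pool group against 1719.7, 5039, 6708 and 11106 (difference 2.58, standard error 0.19). Control 1 was the lowest of all 10 pools in this gene. The cyp1a gene, the classical target of the aryl hydrocarbon receptor, had 1568, 1439 and 2389 in control 2, control 4 and POP75x 3 and 283, 436, 471 and 1425 in control 1, POP75x 4, POP125x 3 and POP125x 4 (difference 2.42, standard error 0.31). Between unexposed pools alone the difference was 2.401, while the other 3 pools, all exposed, stood above both groups at 7041, 4298 and 6261.

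In the eye, photoreceptor genes did not follow the lens. Of 62 phototransduction genes, 9 were set apart higher in the 3-pool group and 3 lower, with a median of 0.32 that turned to -0.075 with scaling by total reads, and in 32 of them the 3 pools all lay above the 4. The rhodopsin gene rho, the visual pigment of rods, had 40347, 45721 and 60047 normalized counts in control 2, control 4 and POP75x 3, against 15642, 16879, 12707 and 16211 in the 4-pool group (difference 1.62, standard error 0.16). The 4 pools spanned less than the gap to the nearest of the 3.

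Rod and cone genes were separated after their values were seen. Of 11 rod genes, 4 were higher and 0 lower, with a median of 0.84 and a range of -0.42 to 1.62. The others of the 11 were not set apart. Of 18 cone genes 2 were higher and 2 lower, with a median of 0.29. Not all of the genes named next stand among the 11 rod genes, and those with a difference above 1 were named because they were set apart. The rod transducin subunit gene gngt1 differed by 1.404, the disc rim genes rom1b by 1.45 and prph2b by 1.23, the arrestin gene sagb by 1.11 and the phosphodiesterase subunit gene pde6gb by 1.17. Among cone genes, the blue opsin gene opn1sw2 (1.01) was just inside the limit of 1 and the ultraviolet opsin gene opn1sw1 (1.00, just under it) just outside, both with all 3 pools above all 4. The opn1sw1 values were 30371, 27745 and 39243 in the 3-pool group and 15819, 17609, 15514 and 17982 in the 4-pool group.

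Further cone genes lay nearer to 0 or below it. The cone transducin gene gnat2, picked after its values were seen, differed by 0.63. Thyroid hormone receptor beta, encoded by thrb and needed for red cones, had 448, 303 and 229 normalized counts in the 3-pool group against 833, 707, 549 and 473 (difference -1.37). The cone channel gene cnga3a differed by -1.45, with an overlap, control 2 and 4 at 147 and 153 and POP125x 4 at 138. Of 22 genes of the retinal pigment epithelium and visual cycle, 0 were higher and 1 lower, oca2, a melanosome membrane protein (-1.16), and the median of 0.09 turned to -0.304 with scaling by total reads and to -0.166 without either POP75x pool.

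Ribosomal protein genes were higher in the 3-pool group. Of 76 ribosomal protein genes, 47 were set apart higher and 0 lower, with a median of 1.11, 29 were not set apart, and in 58 the 3 pools all lay above the 4. The large subunit gene rplp0 had 32686, 28837 and 54519.5 normalized counts in the 3-pool group against 14315, 14643, 16377 and 21293 (difference 1.44). The rpl23a gene differed by 1.49 and rplp2l, outside the list and taken up after its values were seen, by 1.65. Pseudogene copies of ribosomal proteins can take reads of their sources.

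Of 61 nuclear genes of oxidative phosphorylation, 13 were higher and 0 lower, with a median of 0.74. All 61 differences were above 0, but 48 were not set apart, and in only 21 the 3 pools all lay above the 4. Summed over the list, control 2, control 4 and POP75x 3 had 276377.9, 273314.1 and 469492.6 normalized counts. Control 1, POP75x 4, POP125x 3 and POP125x 4 had 166867.5, 211923.8, 244691.7 and 271859.9. By these sums POP75x 3 stood far above the other pools, and POP125x 4 was close to control 2 and 4. Of 13 transcripts of the mitochondrial genome, 3 were higher and 0 lower, with a median of 0.77. The cytochrome oxidase transcript mt-co3 had 196839.5, 221271 and 266517 normalized counts in the 3-pool group against 83913, 99374, 133784 and 156497 (difference 1.36). Scaled by total reads, the medians were 0.71 for ribosomal proteins, 0.35 for the nuclear and 0.37 for the mitochondrial genes.

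Among 55 DNA replication genes, 8 were higher, 0 lower and 47 not set apart, with a median of 0.61, and in 37 the 3 pools all lay above the 4. The mcm7 gene, a subunit of the replicative helicase, had 1863, 1928 and 2236 normalized counts in the 3-pool group and 847, 777, 739.6 and 852 in the 4-pool group (difference 1.32, standard error 0.12). The sliding clamp gene pcna, picked after its values were seen, differed by 0.69. Genes of mitosis differed less: of 47, 1 was higher and 0 lower, with a median of 0.19 that turned to -0.207 with scaling by total reads.

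In the blood and skin lists, the share of genes set apart lower was near or under that of all genes (7.04%). Of 28 erythroid genes, 5 were higher and 2 lower, with a median of 0.45 that was 0.076 with scaling by total reads. In 9 the 3 pools all lay above the 4 and in 6 below, the latter near the share of all genes (21.2%). The embryonic globin gene hbae1.1 had 2931, 3453 and 4470.2 normalized counts in the 3-pool group against 1193, 818, 1171 and 1874 (difference 1.86, with reads that near-identical globin copies may share), while sptb, the beta spectrin of the red cell skeleton, had 694, 651 and 571 against 2018, 1884, 1752 and 1531 (difference -1.64). Of 55 skin and keratin genes, 9 were higher and 1 lower, with a median of 0.29 that turned to -0.107 with scaling by total reads. The keratin gene krt91 differed by 1.42 and the abundant periderm keratin krt4, picked after its values were seen, by 0.41.

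Genes tied to larval stage formed a small list, with 4 of 29 higher, 3 lower and a median of 0.02 that turned to -0.377 with scaling by total reads. The 3 lower genes are known for high levels in embryos and a later decline. The higher genes include an embryonic globin gene and a hatching enzyme gene. Whether the groups differ in stage was not tested. The lin28a gene, an RNA-binding protein that blocks let-7 maturation, had 15.7, 5.91 and 5.33 normalized counts in the 3-pool group and 63.9, 35.2, 62.6 and 54.1 in the 4-pool group (difference -2.56, standard error 0.37). Its paralog lin28b differed by -1.62. The chromatin protein gene hmga2, a let-7 target in mammals, had 789, 936 and 445 in the 3-pool group against 1447, 1251, 1305 and 1122 (difference -1.07). The higher genes of this list include the hatching enzyme gene hce2l1 (1.24, at 41.1 to 44.3 in the 3-pool group and 16.6 to 36.7 in the 4-pool group), fabp10a and hbae1.1.

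Genes of mature neurons were set apart about as often as all genes (4.28% higher and 7.04% lower). Of 59, 3 were higher and 4 lower, with a median of 0.05. The neuron marker snap25a lay between 4129 and 5545 normalized counts over all 10 pools. The pan-neuronal RNA-binding protein gene elavl3 had 3463, 3679 and 2826 normalized counts in the 3-pool group against 6687, 6466, 5228 and 4927 (difference -1.03). Of 41 immediate early genes, which neurons and other cells switch on within minutes of a stimulus, 5 were higher and 0 lower, with a median of 0.52. Among them, egr1 had 3428, 4160.1 and 3557 against 1217, 1785, 3249 and 3234 (difference 1.36), so that POP125x 3 and 4 were close to the 3-pool group.

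Over all 43 lists, 30 had a median above 0 and 13 below, and 69 genes stand in more than 1 list. In pcdh2ac, a clustered protocadherin and the first of the 20 highest genes, transcripts were present or absent by pool: 279, 319 and 143 normalized counts in the 3-pool group, against 0 in control 1, POP75x 4 and POP125x 3 and 145 in POP125x 4. In the other 3 pools it had 0, 0 and 196.

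The direction of a difference also varied with the level of the gene. Genes were ordered by their mean over the 7 pools and divided into 10 bins of 2114. The median difference was -0.24 in the lowest bin and 0.35 in the highest, which begins at a mean of 1379 normalized counts. In the lowest bin, 108 genes were set apart higher and 336 lower, and in the highest bin 216 were higher and 46 lower. The highest bin holds such transcripts as actc1b, rplp0 and amy2a. Its genes enter the sums of normalized counts with the largest values, so larger values there raise the sums by arithmetic. Scaled by total reads, the median difference of all genes was -0.39, and 239 genes were set apart higher and 3672 lower, so that 6.11% of the genes set apart were higher, against 37.8% with the deposited size factors. Which scaling fits the larvae was not tested.

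**Figure D4:**
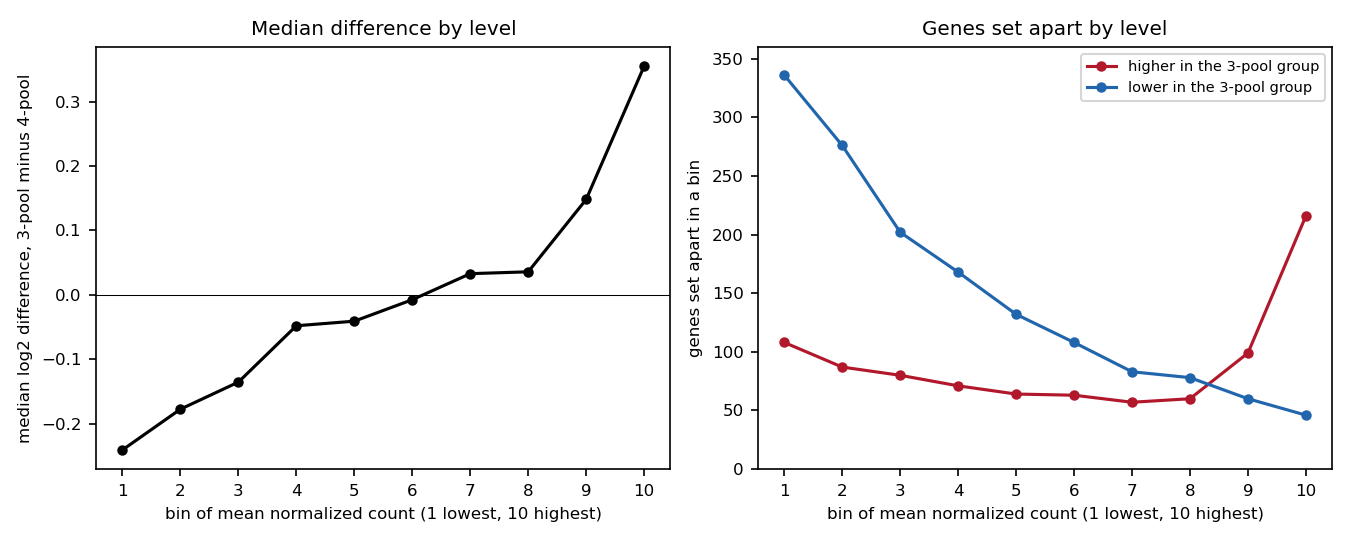
The left plot gives the median dose-adjusted log2 difference (3-pool minus 4-pool group) and the right plot the number of genes set apart higher (red) and lower (blue), in 10 bins of 2114 genes ordered by mean normalized count. The median passes from -0.24 in the lowest bin to 0.35 in the highest, and the genes set apart lower from 336 to 46.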

How the data were processed

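The deposited table gives 1 value per gene (32520 genes) and pool: a normalized count, that is the signal the authors made by dividing reads per gene by 1 DESeq2 size factor of the pool. By the methods and the labels' processing notes, stranded mRNA libraries were aligned to GRCz11 and counted by the nf-core RNA-seq pipeline with its defaults, and no pools were merged. In each pool, 100% of the values were whole multiples of the value of 1 read, within 0.001, so reads were recovered for the count tools. The authors' tables of each dose against control (log2 fold changes, p-values) were not used. Larvae of a treatment came from independent experiments by the methods, but no label ties a pool to one, and the labels and the methods differ in the number of larvae per pool.

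The fit was limma 3.58.1 in R 4.3.3 with an intensity trend, on log2(normalized count + 1), with pool group and treatment as terms over 7 pools, after a filter of at least 10 normalized counts in at least 3 pools. It was tested on simulated data first. A fold change on this scale understates the change of low genes, and a gene under the filter (11380 genes) was not described. The plan allowed for raw counts, but the table held normalized ones. No p-value is given, since the pools were grouped on the same values. Standard errors measure only the spread between pools, which may be technical, and limma draws the spread of each gene toward a trend over all genes. The pools were grouped on the same values, so this spread is not independent of the grouping. Alternatives were TMM and total-read scaling, other filters and pseudocounts, a 1.5-fold limit, fold changes from edgeR 4.0.16 or from DESeq2 1.42.0 on recovered reads, all 10 pools with 3 pool groups, with and without the replicate number as a block, no treatment term, and leaving out each pool. Python 3.11.15 with matplotlib 3.10.9 made the plots.

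The members and the lists were chosen with earlier results of these data known. Named genes are the 2 markers of the division, members of 43 lists (21 of them plotted), and the 20 genes in each direction with the largest difference among those set apart with a mean of at least 50 normalized counts, besides those named as chosen after their values were seen. No named symbol has more than 1 identifier. No coordinates or sequences are given, because the reference at hand was of another assembly.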

Additional observations from a re-analysis of the deposited data

Results flagged for a closer look

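In 6 of 85 named genes, 1 pool of the 4-pool group stood far from the other 3 on the log2 scale. Chance gives this in about 1 of 20 groups drawn from a single normal distribution. The pools here differ in treatment and most genes were named for a pool difference, so no excess can be read from that rate. In 5 of the 6 genes the far pool was POP125x replicate 4: prox1a at 610.2 normalized counts, prss1 at 6560.0, serpina1l at 3723, hce2l1 at 36.7 and pcdh2ac at 145. The pde6gb gene stood out in POP125x replicate 3, at 458.

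In 2 of the 85 named genes the controls and the POP75x pools went opposite ways, and this difference was not tested. Most named genes were set apart and so have the same direction in both by the rule. Over all genes described, the sign was the same in only 77.9%. The crygm2f gene had a log2 difference of 0.25 in the controls and -0.04 in POP75x, and prox1a 0.09 in the controls and -0.19 in POP75x.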

How the results depend on the processing

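Genes set apart higher were 905 as reported, 3324 with a 1.5-fold limit, 239 with scaling by total reads and 507 without the treatment term. Leaving out 1 pool at a time gave 769 to 1726, the highest without control replicate 1, when only the POP75x pair is left to give the difference. Genes set apart lower were 1489 as reported, 3772 with a 1.5-fold limit, 3672 with scaling by total reads and 918 with a filter of 50 normalized counts, which tests fewer genes, and 1431 to 2191 with 1 pool left out. Without a POP125x pool the counts stay the same by construction. Other scalings, filters, pseudocounts, tools and sample sets gave 723 to 1211 higher and 1215 to 2021 lower, within 1.5 times the reported counts.

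Of 378 list medians under alternatives, 22 changed sign, in 10 lists. With scaling by total reads, 8 did: phototransduction (-0.075), xenobiotic metabolism (-0.205), skin (-0.107), mitosis (-0.207), sarcomere (-0.293), retinal pigment epithelium (-0.304), heat shock (-0.39) and hatching and stage (-0.377). The other 14 were collagens without the treatment term (0.038) and lists with a median near 0: heart muscle (up to 0.176), retinal pigment epithelium (-0.166), heat shock, and hatching and stage. Of 1525 values of the 85 named genes, 11 changed sign, in crygm2f, pitx3, prox1a and mafba, none of which was set apart. For genes set apart this follows largely from the rule. Their direction is the same pool by pool, so leaving out a pool cannot turn it. Their size is at least 1, above the general shift with scaling by total reads (median -0.39).

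The replicate number could be used as a block only with all 10 pools and 3 pool groups, where it gave 1023 genes higher and 1596 lower, against 889 and 1442 without the block. The samples share only a number, and nothing in the labels says that it marks a shared clutch or day. For low genes the depth limits what can be described: 1 read is worth 0.873 to 1.216 normalized counts.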
